A study of Mus musculus with 15 samples.

Results

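The large olfactory receptor gene clusters of mouse chromosomes 2, 7 and 9 were followed in chromatin maps of hepatocytes. They were taken as fixed stretches of the mm9 genome: chr2:85000001-90100000 (5.1 Mb), chr7:109700001-116000000 without the beta-globin stretch chr7:110900001-111100000 (6.1 Mb kept), and chr9:37700001-39900000 (2.2 Mb). Together they held 134 of the 24722 autosomal windows of 100 kb (51 on chromosome 2, 61 on chromosome 7 and 22 on chromosome 9), or 0.542% of autosomal bases. They were set by position, without a threshold on the maps, but with earlier results of these data known. The rest of chromosomes 2, 7 and 9, 4447 windows, served for comparison.

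The maps came from srHC-seq, in which crosslinked chromatin is sonicated and the DNA is separated by fragment size, so that chromatin resisting sonication (het) can be told from open chromatin (euch), with a class int between them. Hepatocytes of 15 mice in 3 groups of 5 were profiled. The first group was wild type at postnatal day 14 (P14; 3 males, 2 females), and the second was wild type at 2 months (2 males, 3 females). The third, also at P14 (2 males, 3 females), had the genotype label Alb-Cre;Ezh1-/-;Ezh2f/f: Ezh1 is lost in all cells of such mice, while Ezh2 is deleted where the albumin promoter drives Cre, that is in cells of the hepatocyte lineage. It is called the knockout here. EZH1 and EZH2 are the alternative catalytic subunits of PRC2, which methylates lysine 27 of histone H3, and the files hold no measurement of either gene, so the knockout itself could not be checked. The label hepatocytes could not be set against marker genes either, since the maps hold no RNA. Each group had 1 pooled map, without read counts. There was therefore no spread between mice to test a difference against, no p-value was computed, and the depth behind a call is unknown. The sex ratio, the volumes used to perfuse the liver and to lyse the cells, and age cannot be told apart in the comparison of 2 months with P14. The sex ratio also differed between knockout and wild type at P14.

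Olfactory receptors are G protein-coupled receptors that bind odorants, and they form the largest gene family of the mouse genome. Their genes stand in long tandem arrays, and each olfactory sensory neuron is known to express a single allele of a single gene while the others stay packed in constitutive heterochromatin. Hepatocytes have no known use for most of them. Whether the genes were silent in these cells was not measured, since the maps hold no RNA.

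The gene order of RefSeq (GRCm38.p6, another build, used for names and neighbours and not for positions) shows what such arrays contain. On chromosome 2, 222 of the 225 protein-coding genes between Lrrc55 and Ptprj were olfactory receptors (98.7%). The other 3 were Fads2b, Pramel7 and Pramel6. On chromosome 9, 95 of 98 between Panx3 and Zfp202 were olfactory receptors (96.9%), interrupted by Vwa5a, AW551984 and Tmem225. The chromosome 7 run between Rrm1 and Nlrp10 was more mixed, with 193 olfactory receptors among 248 genes (77.8%). Its 55 other genes included the beta-globins Hbb-bt, Hbb-bs, Hbb-bh2, Hbb-bh1 and Hbb-y, a block of Trim genes (Trim6 to Trim30d), and a block from Fam160a2 to Gm1966 with genes of general cell function such as Ilk (integrin-linked kinase), Taf10 (a subunit of the general transcription factor TFIID), Tpp1 (a lysosomal peptidase) and Mrpl17 (a mitochondrial ribosomal protein), beside Hpx, the haem-binding plasma protein hemopexin made by the liver. Which bases of the mm9 windows these genes cover was not determined.

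The promoters of the receptor genes are shown because their base composition differs from that of other genes. The table of RefSeq promoters (GRCm38.p6; 250 bases before to 50 after each gene's start) held 435 of the 510 receptors of the 3 runs. Their median GC content was 34.0%, against 36.7% for 509 olfactory receptors elsewhere and 57.3% for 16330 other protein-coding genes, and the median number of CG dinucleotides was 1.00, against 15.0 in the other genes. No CG at all was found in 154 of the 435 (35.4%), against 3.36% of the other genes. The letters TAATTA, which read the same on both strands, are the core bound by homeodomain proteins such as LHX2, a regulator of receptor genes in the nose. They were found in 83 of the 435 (19.1%), against 3.79% of other genes and 18.3% of the receptors elsewhere. All these letters are A or T, so they come up more often in sequence of low GC content. Whether they were more common than base composition alone gives was not tested. In 313 of the 435 (72.0%, against 5.21% of other genes) the listed start is an ATG, so that in these models the listed start may be that of the coding sequence and the window may lie inside the gene. The examples are, for each run, the promoter whose GC content is nearest the median among those that do not start with ATG. CG dinucleotides are in capitals: 1 in Olfr1140 on chromosome 2, 4 in Olfr601 on chromosome 7 and 0 in Olfr27 on chromosome 9.
Olfr1140: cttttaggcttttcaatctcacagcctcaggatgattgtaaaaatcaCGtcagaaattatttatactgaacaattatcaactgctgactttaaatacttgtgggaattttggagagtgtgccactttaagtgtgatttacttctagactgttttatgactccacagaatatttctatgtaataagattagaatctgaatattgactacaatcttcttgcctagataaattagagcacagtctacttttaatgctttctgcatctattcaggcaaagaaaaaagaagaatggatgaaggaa
Olfr601: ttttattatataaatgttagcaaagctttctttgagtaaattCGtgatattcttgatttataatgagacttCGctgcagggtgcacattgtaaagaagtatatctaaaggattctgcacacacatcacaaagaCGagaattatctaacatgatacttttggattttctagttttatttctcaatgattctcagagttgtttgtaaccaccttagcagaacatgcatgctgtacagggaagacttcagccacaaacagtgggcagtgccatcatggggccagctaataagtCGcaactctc
Olfr27: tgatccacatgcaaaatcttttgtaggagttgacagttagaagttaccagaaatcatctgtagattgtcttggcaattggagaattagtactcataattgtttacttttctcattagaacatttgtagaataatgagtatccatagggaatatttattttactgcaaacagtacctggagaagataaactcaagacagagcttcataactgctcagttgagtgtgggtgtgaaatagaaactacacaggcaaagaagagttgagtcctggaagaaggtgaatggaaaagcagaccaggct

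The clusters as a whole were more closed at 2 months than at P14, while the rest of the 3 chromosomes, pooled, was not. The het class covered 56.2% of the cluster bases in the P14 wild type, 61.1% in the P14 knockout and 70.7% at 2 months, against 49.2%, 48.6% and 48.3% of the rest. The euch class covered 32.3%, 28.7% and 20.9% of the clusters, against 39.2%, 40.0% and 41.1% of the rest. The openness score of a region is its euch share minus its het share, from -1 (all het) to 1 (all euch). Over the 3 clusters it was -0.24 in the P14 wild type, -0.32 in the knockout and -0.50 at 2 months, and over the rest it was -0.10, -0.09 and -0.07. The difference of 2 months from P14 was thus -0.26 in the clusters and 0.03 in the rest, and that of the knockout from the P14 wild type was -0.08 and 0.01. Both differences are taken from the same P14 wild-type map. With the 5 kb on either side of each P14 wild-type edge dropped, 52.9% of the cluster bases and 65.7% of the rest were left. The age difference of the clusters was then -0.11 (rest 0.03). The knockout difference was 0.01 (rest 0.02), so its sign turned. The edges are those of the P14 wild-type map alone, and its classes were dropped unevenly: 65.0% of its het, 8.70% of its int and 47.5% of its euch bases in the clusters were left. The cluster scores were then -0.40 in the P14 wild type, -0.39 in the knockout and -0.51 at 2 months. Dropping these bases thus cannot show whether the differences lie at edges. The pooled knockout difference depends on the cluster: it was -0.16 without the chromosome 7 cluster and -0.05 without that of chromosome 9.

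The 3 clusters did not share 1 level. At P14 the chromosome 2 cluster was almost balanced, with 45.7% het and 41.8% euch and a score of -0.04, near the 0.03 of the rest of chromosome 2. It stood at -0.14 in the knockout and -0.37 at 2 months. The rest of chromosome 2 was at 0.03 in the knockout and 0.00 at 2 months, so it too was slightly lower with age, by -0.03. The chromosome 7 cluster was the most closed at P14, with 64.3% het and a score of -0.39, and it had the same score of -0.39 in the knockout and -0.51 at 2 months. The rest of chromosome 7 was itself closed, at -0.26, -0.25 and -0.20. The chromosome 9 cluster stood furthest apart between maps: 58.4% het in the P14 wild type, 74.9% in the knockout and 85.2% at 2 months, with euch at 29.2%, 17.1% and 7.73% and scores of -0.29, -0.58 and -0.77. The rest of chromosome 9 ran the other way, at -0.09, -0.05 and -0.02. The age difference was -0.33 on chromosome 2, -0.12 on chromosome 7 and -0.48 on chromosome 9, and the knockout difference was -0.10, 0.00 and -0.29. Away from P14 wild-type edges the age difference was -0.20, -0.03 and -0.18, and the knockout difference was -0.03, 0.04 and -0.02. On chromosome 9 that left 41.4% of the bases and 25.2% of the P14 euch bases.

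**Figure D1:**
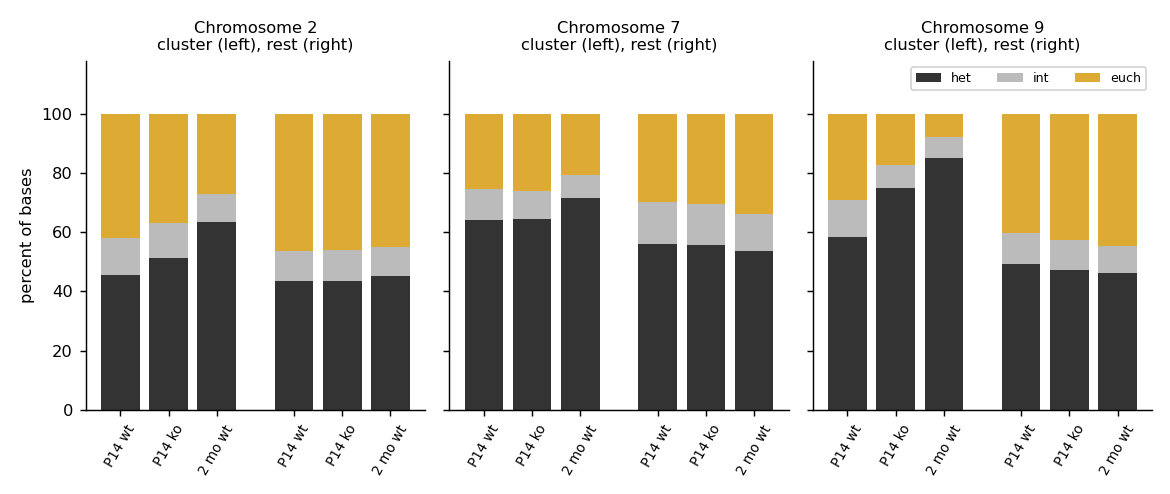
Percent of bases called het (closed), int and euch (open) in each of the 3 maps, for each olfactory receptor cluster (left bars) and the rest of the same chromosome (right bars); wt is wild type and ko is the knockout, 1 pooled map each, so there are no error bars. The het share of the chromosome 9 cluster is 58.4%, 74.9% and 85.2%, while that of the rest of the chromosome stays between 46.1% and 49.2%.

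Among windows of 100 kb, the 2-month map was the lowest of the 3 in 81 of the 134 cluster windows (60.4%), against 26.4% of the windows of the rest. The median window score was -0.30 in the P14 wild type, -0.44 in the knockout and -0.80 at 2 months, against -0.10, -0.08 and -0.06 in the rest. Windows that were almost wholly het, with a score below -0.9, numbered 10, 16 and 44 of 134 in these maps (7.46%, 11.9% and 32.8%), against 13.6%, 16.4% and 21.8% of the rest. So at P14 such windows were less common in the clusters than around them, and at 2 months more common. Windows above 0.5 numbered 13, 14 and 16 (9.70%, 10.4% and 11.9%), against 21.5%, 25.7% and 31.0% of the rest.

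With age, 36 of the 134 cluster windows were lower by more than 0.5 (26.9%), where the background over all autosomal windows is 12.4%. Only 1 window was higher by more than 0.5 (0.746%, background 9.97%). The lower windows were 16 of 51 on chromosome 2, 9 of 61 on chromosome 7 and 11 of 22 on chromosome 9, against 13.1%, 7.32% and 5.41% of the rest of these chromosomes. Without a threshold, 93 of 134 windows (69.4%) were lower at 2 months, against 35.8% of the rest, with a median difference of -0.22 and a range from -1.50 to 0.58.

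In the knockout, 6 windows were lower by more than 0.5 (4.48%, background 5.42%) and 4 were higher (2.99%, background 3.79%), both near the background. That holds for the 3 clusters pooled and not for each. All 4 of the higher windows lay on chromosome 7 (6.56% of its 61 cluster windows, rest of that chromosome 2.39%). Of the 6 lower windows, 3 lay on chromosome 9 (13.6%, rest of that chromosome 2.71%). Another 2 lay on chromosome 2 (3.92%, rest 5.27%) and 1 on chromosome 7 (1.64%, rest 3.90%). Small differences were more one-sided on chromosome 9, where 20 of 22 windows (90.9%) were lower in the knockout than in the P14 wild type, against 35.8% of the rest of that chromosome. On chromosome 7 the windows were split, 28 lower and 27 higher. The pooled reading also depends on the threshold. Past 0.3, 18.7% of cluster windows were lower in the knockout, where 11.1% of the rest were lower by 0.3 or more. Windows not higher by more than 0.3 made up 95.5% of the clusters and 87.8% of the rest.

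The 2-month wild type and the P14 knockout share no map. Of the 134 windows, 20 were lower at 2 months than in the knockout by more than 0.5 (14.9%, background 6.14%), and 2 were higher (1.49%, background 6.03%). The knockout score lay between a higher P14 wild type and a lower 2-month wild type in 59 of 134 windows (44.0%), against 16.3% of the rest. The share with this order was 81.8% on chromosome 9 (18 of 22), 47.1% on chromosome 2 (24 of 51) and 27.9% on chromosome 7 (17 of 61). The order requires a lower score at 2 months than at P14, which held in 69.4% of cluster windows and 35.8% of the rest. The contrast with the rest therefore partly restates the age difference. With the wild-type maps in either order, the knockout lay strictly between them in 72 of 134 windows, against 1685 of 4447 in the rest. The P14 wild type lay strictly in the middle in 25 cluster windows and 868 of the rest, the 2-month map in 16 and 650. The other windows had tied scores and were a larger share of the rest, which widens the contrast.

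**Figure D2:**
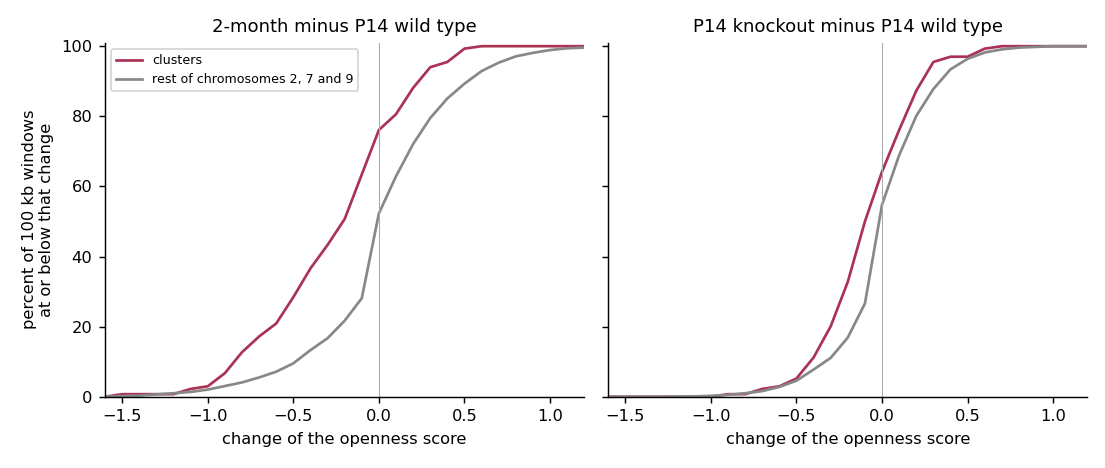
Cumulative percent of 100 kb windows (vertical axis) by the difference of their openness score (horizontal axis), for the 134 cluster windows and the 4447 windows of the rest of chromosomes 2, 7 and 9. The cluster curve lies to the left with age (median -0.22 against 0.00) and much closer to the rest in the knockout (median -0.09 against 0.00).

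The starting level of a window bounds how far it can differ, so windows were also set beside others of the same P14 wild-type score, a grouping added after the data were seen. Among windows scoring from 0 to below 0.5 at P14, the median age difference was -0.64 in 26 cluster windows and 0.06 in 1049 windows of the rest. In the class from -0.5 to below 0 it was -0.38 in 57 cluster windows and 0.02 in 944 of the rest, but -0.12 in 5605 windows over the rest of all autosomes, of which 55.9% were lower, so the contrast is smaller there. Windows already below -0.5 stood at -0.12 (37 windows) and 0.00 (1466 windows). The 14 open windows, at 0.5 or above, had a median of 0.11, against 0.04 in 988 windows of the rest. The clusters stood furthest from the rest in windows of mixed class, and their open windows were not lower by the median. Of these 14 open windows, 5 were lower at all (35.7%, rest 24.5%) and 2 by more than 0.5 (14.3%, rest 5.87%).

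Along the chromosome 2 cluster the differences were uneven. The first Mb was mixed but above 0 in all 3 maps (0.30, 0.31 and 0.28). It held windows below 0 in every map, such as chr2:85300001-85400000 (-0.48, -0.46 and -0.72). An open block at chr2:85600001-86100000 scored 0.79 in the P14 wild type, 0.88 in the knockout and 0.90 at 2 months. A second open block, chr2:87800001-88000000, scored 0.70, 0.86 and 0.78. From chr2:88400001 to 90000000, 16 windows in a row were below -0.8 at 2 months, between -1 and -0.82, while the same windows ran from -0.86 to 0.60 in the P14 wild type and from -1 to -0.18 in the knockout. The mean of this 1.6 Mb was -0.23 in the P14 wild type, -0.49 in the knockout and -0.94 at 2 months. It was singled out after its values were seen. The window chr2:88700001-88800000 had the largest difference of all cluster windows in both comparisons with the P14 wild type: 0.60 in the P14 wild type, -0.32 in the knockout and -0.90 at 2 months. Its neighbour chr2:88800001-88900000 scored 0.24, -0.26 and -0.90, and chr2:88500001-88600000 scored 0.14, -0.22 and -0.96. Another large age difference lay apart from them at chr2:86700001-86800000, with 0.16, -0.26 and -0.82.

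The chromosome 7 cluster behaved differently on either side of the beta-globin genes. The 1.2 Mb before them scored -0.09 in the P14 wild type, -0.15 in the knockout and -0.62 at 2 months. The 4.9 Mb after them scored -0.46, -0.44 and -0.48. In the first part, chr7:110700001-110800000 scored 0.46, 0.54 and -0.36, and chr7:110000001-110100000 scored 0.50, 0.42 and -0.46, so that both P14 maps were above 0 and the 2-month map was below it. The second part held closed blocks that were alike in all maps, such as chr7:111100001-111300000, at -1 in each, and chr7:115500001-116000000, at -0.89, -0.96 and -1. It also held the 5 largest age differences towards open among all cluster windows. The largest difference towards open, at chr7:111400001-111500000, had scores of 0.40, 0.38 and 0.98, and the next, at chr7:114800001-114900000, had 0.46, 0.26 and 0.96. The 4 windows that were more open in the knockout by over 0.5 lay here too: chr7:112600001-112700000 scored -0.48 in the P14 wild type, 0.14 in the knockout and -0.02 at 2 months, and chr7:113600001-113700000 scored -0.30, 0.30 and -0.36.

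The chromosome 9 cluster had no window above 0.5 in any map. A stretch at its beginning, chr9:37800001-38200000, was closed in all maps (-0.66, -0.88 and -0.96). The 1 Mb from chr9:38700001 to 39700000 scored -0.20 in the P14 wild type, -0.59 in the knockout and -0.86 at 2 months. Within it, chr9:39300001-39400000 scored 0.00, -0.44 and -1. The largest knockout differences of this cluster were at chr9:38900001-39000000, with -0.10, -0.88 and -0.80, and at chr9:39000001-39100000, with 0.02, -0.72 and -0.86. A single window stayed above 0 in all maps, chr9:38500001-38600000, at 0.38, 0.48 and 0.22.

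**Figure D3:**
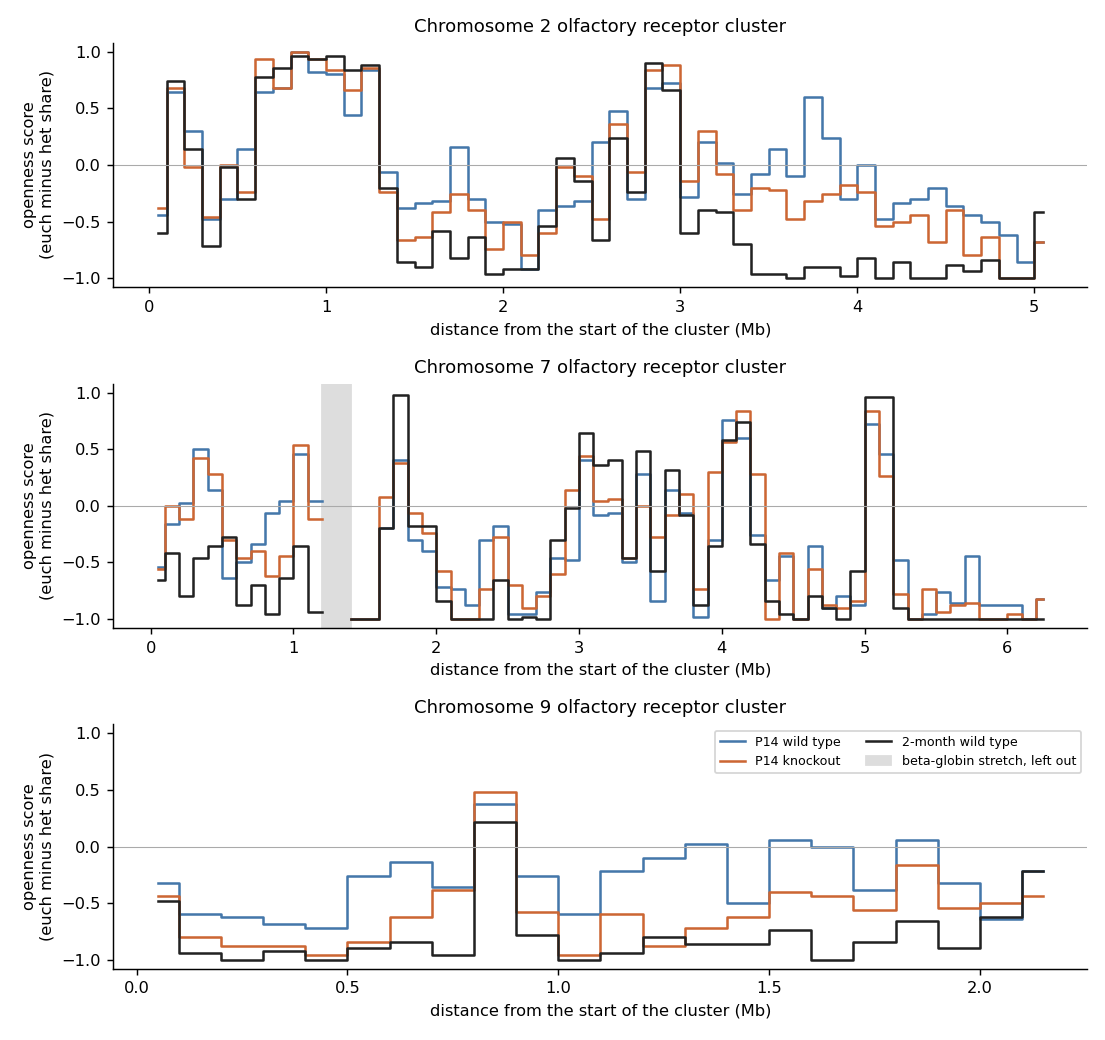
Openness score (euch share minus het share, vertical axis) of each 100 kb window against the distance from the start of each cluster in Mb, with 1 line for each of the 3 pooled maps; the grey band marks the beta-globin stretch, which is left out. The 2-month line lies near -1 from 3.4 to 5 Mb of the chromosome 2 cluster (mean -0.94). It is low over most of the chromosome 9 cluster (median -0.86, with 8 of 22 windows below -0.9). Peaks such as the block at 0.6 to 1.1 Mb on chromosome 2 are high in all maps.

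The outer 1 Mb on both sides, pooled over the clusters, scored 0.13 in the P14 wild type, 0.29 in the knockout and 0.21 at 2 months, so it was more open than the clusters in every map and no lower at 2 months than at P14. On chromosome 2 these flanks scored 0.48, 0.60 and 0.64, on chromosome 7 they scored 0.03, 0.16 and 0.17, and on chromosome 9 they scored -0.11, 0.11 and -0.17. The 2 sides differed on chromosomes 7 and 9. The side after the cluster scored -0.31, -0.17 and -0.35 on chromosome 7, and -0.25, 0.00 and -0.41 on chromosome 9. The side before it scored 0.38, 0.50 and 0.69 on chromosome 7, and 0.03, 0.21 and 0.07 on chromosome 9.

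The het domains of the clusters were longer at 2 months than at P14. The median euch domain was not, with 12.0 kb in the P14 wild type, 10.0 kb in the knockout and 12.0 kb at 2 months, and the median int domain was 4.00 kb in each map. The P14 wild type had 285 het domains that lay mostly inside a cluster, the knockout 270 and the 2-month map 163, or 21.3, 20.1 and 12.2 per Mb (rest 15.6, 14.2 and 10.9). Their median length was 18.0 kb, 18.0 kb and 30.0 kb, against 16.0 kb, 16.0 kb and 18.0 kb in the rest. Domains of at least 40.0 kb, 48.0 kb and 106 kb held 50% of the het bases (the N50), against 58.0 kb, 68.0 kb and 104 kb in the rest. The share of het bases in domains of at least 100 kb was 22.7%, 29.1% and 54.8% in the clusters and 34.8%, 40.4% and 51.3% in the rest. The clusters thus began with shorter het domains than the rest by N50 and ended with about the same. By N50, unlike by median, the euch domains of the clusters were longer at 2 months too. It was 22.0 kb in the P14 wild type, 28.0 kb in the knockout and 38.0 kb at 2 months (rest 54.0 kb, 64.0 kb and 114 kb). The share of euch bases in domains of at least 100 kb was 9.02%, 11.6% and 31.2% (rest 32.2%, 38.1% and 54.3%). Fewer and longer domains at 2 months are a feature of all autosomes here, with 121317 domains in the P14 wild type, 111567 in the knockout and 85333 at 2 months.

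The longest het domain of any cluster was found at 2 months, chr7:114960001-116046000, with 1086 kb. Its bases were already 89.9% het in the P14 wild type and 94.7% het in the knockout, broken by shorter stretches of other classes. On chromosome 2 the longest het domain was 84 kb in the P14 wild type, 242 kb in the knockout and 246 kb at 2 months. The last of these, chr2:89262001-89508000, was 59.3% het in the P14 wild type and 72.4% in the knockout. On chromosome 9 the longest were 100 kb, 114 kb and 234 kb.

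**Figure D4:**
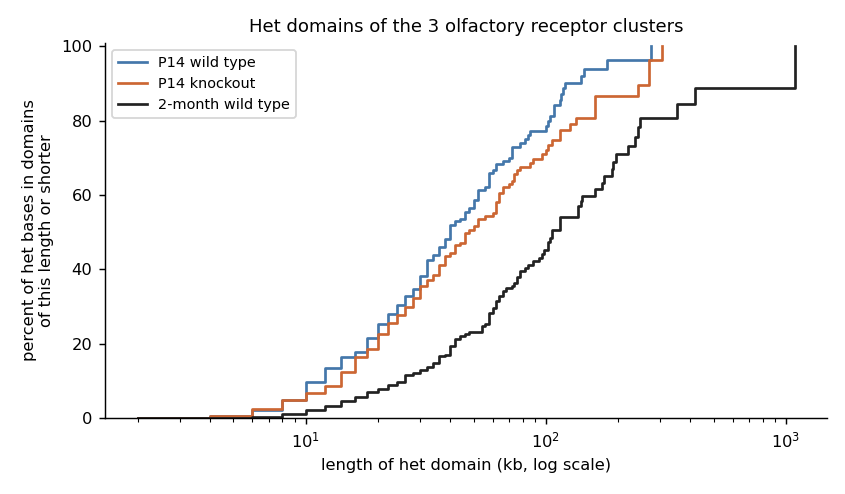
Cumulative percent of het bases (vertical axis) in domains of a given length or shorter (horizontal axis, kb, log scale), for domains mostly inside the 3 clusters in each of the 3 pooled maps. The 2-month curve lies to the right of both P14 curves: its N50 is 106 kb against 40.0 kb and 48.0 kb, and its longest domain is 1086 kb.

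The clusters held fewer euch domains at 2 months than at P14. The P14 wild type had 270 euch domains mostly inside a cluster (20.1 per Mb, rest 14.7), the knockout 235 (17.5, rest 13.6) and the 2-month map 117 (8.73, rest 9.94). A euch domain of the P14 wild type was counted as kept where at least 50% of its bases were euch in the other map. At 2 months 89 of 270 were kept (33.0%), against 64.1% of 6545 in the rest. In the knockout 148 were kept (54.8%), against 71.4%. On chromosome 9 only 9 of 58 were kept at 2 months (15.5%), against 67.3% in the rest of that chromosome. There 48 of the 58 (82.8%) had no euch base left, against 26.9% in the rest of that chromosome. On chromosomes 2 and 7 the kept shares were 33.9% and 42.3%, against 61.0% and 65.9% in the rest of each.

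Whether an open domain was kept went with its length, in the clusters and outside them. At 2 months, 16.5% of 103 cluster domains under 10 kb were kept, against 51.3% in the rest. From 10 to under 20 kb it was 30.6% of 98, against 57.0%, and from 20 to under 50 kb it was 55.2% of 58, against 75.4%. Of 11 domains of 50 kb or more, 10 were kept (90.9%), against 95.2% in the rest. The knockout shares in these classes were 44.7%, 50.0%, 72.4% and 100%, against 58.9%, 65.8%, 82.4% and 98.5%. Het domains were kept in the clusters more often than outside, 249 of 285 at 2 months (87.4%, rest 66.3%), and on chromosome 9 all 55 were (rest of that chromosome 64.6%). A kept share depends on how much of the other map has that class. At 2 months het covered 70.7% of the clusters, 48.3% of the rest and 85.2% of the chromosome 9 cluster. Euch covered 20.9% of the clusters and 41.1% of the rest. The kept shares of both classes thus partly restate the class shares.

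**Figure D5:**
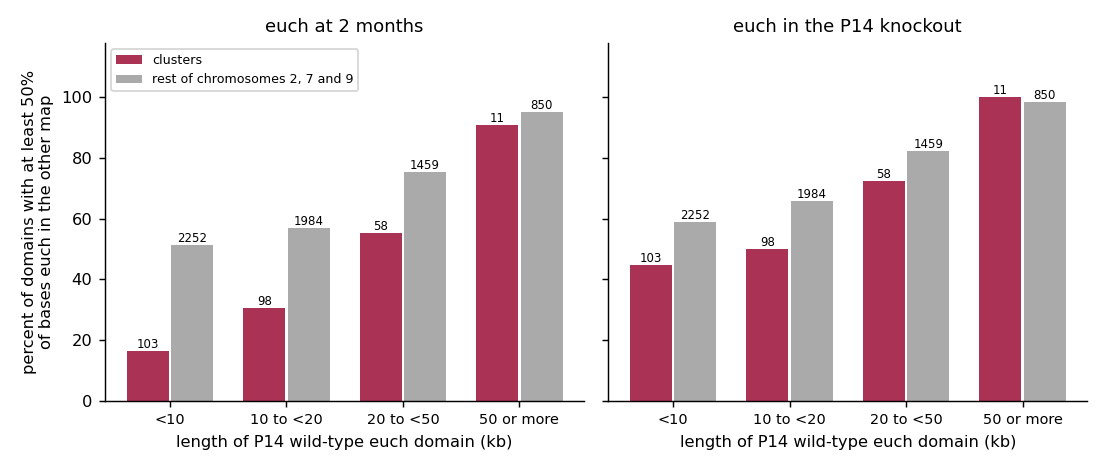
Percent of P14 wild-type euch domains with at least 50% of their bases euch at 2 months (left) and in the P14 knockout (right), by length class in kb, for the clusters and for the rest of chromosomes 2, 7 and 9; numbers over the bars are counts of domains. Among domains under 10 kb the share at 2 months is 16.5% in the clusters and 51.3% in the rest, and among those of 50 kb or more it is 90.9% and 95.2%.

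The long open domains are few and can be followed singly. The P14 wild type had 7 euch domains of at least 50 kb on chromosome 2, 4 on chromosome 7 and 0 on chromosome 9. The 2-month map had 8, 6 and 1. The longest of the P14 wild type, chr2:85746001-85900000, of 154 kb, was 100% euch in the knockout and 93.5% at 2 months. Another, chr2:85956001-86028000, of 72 kb, was 100% euch in all maps. On chromosome 7, chr7:114736001-114860000, of 124 kb, was 87.1% euch in the knockout and 100% at 2 months, where it lay within the longest open domain of the cluster, 192 kb. The single domain of this length that was not kept at 2 months was chr7:110688001-110750000, of 62 kb, 87.1% euch in the knockout and 16.1% at 2 months. It lies in the part before the beta-globin genes. On chromosome 9 the longest open domain overlapped the same place in every map, with 48 kb at chr9:38522001-38570000 in the P14 wild type, 64 kb in the knockout and 54 kb at 2 months.

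Counted in bases, 48.7% of what was euch in the clusters in the P14 wild type was still euch at 2 months, against 79.7% in the rest, and 64.4% was euch in the knockout, against 82.1%. On chromosome 9 these shares were 19.9% and 41.4%, against 84.2% and 84.5% of the rest of that chromosome. Away from P14 edges the pooled shares were 67.6% at 2 months and 80.1% in the knockout. Of the P14 het bases of the clusters, 89.6% were still het at 2 months (rest 79.5%) and 84.5% in the knockout (rest 82.8%). Like the kept shares of domains, these partly restate the class shares. The bases that were euch in the P14 wild type and het at 2 months came to 1714 kb, against 372 kb the other way. In the knockout they came to 1030 kb and 632 kb. In the rest these lengths were 25350 kb and 29048 kb at 2 months, and 19618 kb and 21160 kb in the knockout. In all 3 maps 59.5% of cluster bases had the same class (rest 68.2%): 44.6% were het throughout and 14.2% euch throughout. Bases that were int in all 3 maps, which can mark sequence without reads, made up 0.275%, 1.15% and 0.0909% of the clusters on chromosomes 2, 7 and 9. Whether reads from near-identical receptor genes were placed uniquely is not given in the sources used here, and its part in these values was not tested.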

How the data were processed

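The deposited files are 9 lists of mm9 intervals, with a het, an int and a euch list per group. The submitters' processing notes name bedtools, STAR 2.4.2a and bcl2fastq 2.19.0.316, and the domain caller and its thresholds are not given in the sources used here. The deposited interval score column is 0 throughout, so the values used are the positions of the intervals. Each list was read as a pool of its group's 5 mice. The labels of 1 female of the 2-month group do not name the euch list. The lists of each group tiled the autosomes with 0 gaps or overlaps, and starts lay on a grid of 2 kb.

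Maps were read at 1 kb with SciPy 1.17.1, pandas 2.3.3, NumPy 2.4.6 and Python 3.11.15, on code tested on simulated maps; figures used Matplotlib 3.10.9. Windows were 100 kb, called past a score difference of 0.5, and a domain belonged to a cluster where at least 50% of it lay inside. The members and lists were chosen with earlier results of these data known. The regions named are the clusters, the chromosome 7 parts and the beta-globin stretch, the longest het and euch domain per cluster and map, euch domains of at least 50 kb, and the 5 largest differences in each direction; of each set the leading ones are printed. Blocks that were alike in all maps, steps of 1 Mb and the runs of low windows were added. Gene names come from RefSeq, GRCm38.p6, by order alone. Alternatives are given in the closing section.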

Additional observations from a re-analysis of the deposited data

How the results depend on the processing

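No paired analysis was possible because each deposited list pools the replicates of its group, and for the same reason no replicate could be left out. Of 174 alternatives of 36 results, 2 turned the sign. The knockout difference of the clusters was 0.01 with the 5 kb beside each P14 wild-type edge dropped. That of the chromosome 7 cluster was -0.01 with the beta-globin stretch kept. The cause was not tested. The count of 2 is no measure of stability, because many alternatives could not turn. Shares of windows, bases and domains and median lengths cannot be negative. Leaving out int runs of at least 100 kb shared by all maps changed no cluster base, since the clusters held 0 kb of them. The age difference ranged from -0.37 to -0.11 and that less the rest from -0.38 to -0.14; the knockout difference ranged from -0.16 to 0.01, and less the rest from -0.17 to -0.01. Dropping the edges also moved the age difference of the chromosome 7 cluster from -0.12 to -0.03 and the knockout difference of the chromosome 9 cluster from -0.29 to -0.02. The share of euch bases kept was 67.6% at 2 months and 80.1% in the knockout away from those edges. Past 0.3 in place of 0.5, 43.3% of windows were lower and 5.97% higher with age. In the knockout 18.7% were lower and 4.48% higher than in the P14 wild type. At 2 months 26.1% were lower and 4.48% higher than in the knockout. Of the windows of the rest, 16.7% were lower by 0.3 or more with age and 11.1% in the knockout. Windows not higher by more than 0.3 with age made up 94.0% of the clusters and 79.5% of the rest. In the knockout these shares were 95.5% and 87.8%. In windows of 50 kb, 3.36% were higher with age, and 10.8% were lower and 4.85% higher in the knockout. In windows of 200 kb, 0% were higher in each of the 3 comparisons. No background is given here for windows of 50 kb and 200 kb, or for the shares past 0.3 between 2 months and the knockout. Those values cannot be set against other windows. Counting a euch domain as kept with any shared base gave 38.9% at 2 months and 70.0% in the knockout, and with at least 80% of bases 23.7% and 35.2%. Depth cannot be read from the lists, so its limit on any call is unknown.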

Other observations

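The beta-globin stretch, chr7:110900001-111100000, was left out of the clusters, and its values are given here beside its neighbours. Of its 200 kb, 140 kb were het in the P14 wild type, 176 kb in the knockout and 196 kb at 2 months, while euch made up 50 kb, 14 kb and 0 kb. Its score was -0.45, -0.81 and -0.98. The beta-globins are genes of red cell precursors and not of hepatocytes. The 100 kb before the stretch scored 0.04 in the P14 wild type, -0.12 in the knockout and -0.94 at 2 months, and the 100 kb after it scored -1 in all maps.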
